A study of Mus musculus with 9 samples.

Results

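The comparison described here set Hbxip-/- (KO) against wild-type (WT) E14 mouse embryonic stem (ES) cells in pluripotent culture. E14 is a widely used mouse ES cell line. The libraries were chosen by their titles, KO_1 and KO_2 against WT, and are 3 of the 9 RNA-seq libraries of the study, which also sampled both genotypes 96 h after withdrawal of the cytokine LIF and as embryoid bodies, with 2 KO libraries and 1 WT library each time. RNA of whole cultures was sequenced, and the values are estimated counts and FPKM (fragments scaled by gene length and library size) for each gene. The labels name no other allele or agent, do not say which stretch of Hbxip was targeted, and do not say whether KO_1 and KO_2 are separate clones or cultures. With 1 library, WT was taken to vary as the KO pairs do, and p-values measure no more than the spread of these libraries, which may be technical.

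Hbxip, now named Lamtor5, encodes a subunit of Ragulator, the complex that anchors the Rag GTPases to the lysosome surface. Amino acids activate the kinase complex mTORC1 there, and mTORC1 in turn drives protein, lipid and nucleotide synthesis and keeps the factors TFEB and TFE3, which switch on lysosomal genes, out of the nucleus. Mouse ES cells can hold a naive state, marked by factors such as ESRRB, KLF4 and TFCP2L1, or move towards the formative state of the later epiblast, marked by factors such as OTX2 and ZIC2.

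Rounded counts summed to 10345661 in KO_1 and 10147277 in KO_2, against 10602484 in WT. A count of 0 allows up to 3 counts, which were worth 0.29 and 0.296 CPM (counts scaled by library size) in KO and 0.283 CPM in WT. A gene was called when its adjusted p was below 0.05 in the quasi-likelihood test of edgeR, with p adjusted by Benjamini and Hochberg's method over all genes, and both KO libraries lay on 1 side of WT, so KO and WT do not overlap in CPM at a called gene. Both KO libraries lay on 1 side of WT at 89.8% of all genes tested, called or not, so that part of the rule set few genes apart. FPKM is scaled otherwise than CPM, so the side of WT on which a gene lies can differ between them. Of 13990 genes tested 7248 (51.8%) were called, with a median log2 fold change (KO over WT) of -0.0078 over all genes. Log2 CPM correlated at 0.991 between KO_1 and KO_2, and at 0.915 and 0.927 between KO_1 and KO_2 and WT. Over 10948 genes of at least 5 CPM, the SD of the log2 difference was 0.21 between KO_1 and KO_2 and 0.85 between their mean and WT. Genes under 1000 bases held 12.4% and 12.3% of the counts in KO, against 9.47% in WT. Fold changes corrected for gene length by a loess curve are therefore given beside the results that move with it.

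Hbxip itself stood at 30.97 and 29.1 FPKM in KO, against 40.7 FPKM in WT, or 284 and 262 counts in KO, against 382 in WT. Both KO libraries lay below WT, but the log2 fold change of -0.31 ± 0.15 (SE) did not pass the test (adjusted p = 0.0971), and it was -0.58 after length correction (adjusted p = 0.00434). It also passed with library totals (adjusted p = 0.0273), upper-quartile factors (adjusted p = 0.0295), limma on FPKM (adjusted p = 0.0342 and 0.0394) and a replicate block (adjusted p = 0.0438). Reads of Hbxip remained in KO, so the genotype is taken from the labels.

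Of 9 other genes of Ragulator and the Rag GTPases 5 rose and 2 fell, with a median log2 fold change of 0.53 (0.31 after length correction), where 25.5% of all genes tested rose and 26.3% fell. Rragc, a Rag GTPase, was at 35.1 and 29.9 FPKM in KO, against 13.8 FPKM in WT, and it rose by 1.36 ± 0.13 (adjusted p = 3.86e-06). Lamtor1, the subunit that tethers the complex to the membrane, was at 165 and 156 FPKM in KO, against 102 FPKM in WT, and it rose by 0.78 ± 0.10 (adjusted p = 4.18e-05). In both the gap between KO_1 and KO_2 was small beside their distance from WT. The subunit genes Lamtor4 (1.15 ± 0.15) and Lamtor3 (0.53 ± 0.14) and the GTPase gene Rragd (0.70 ± 0.11) also rose, though Lamtor3 was not called after length correction (0.31). Slc38a9, a lysosomal arginine sensor that binds Ragulator, was at 0.91 and 0.91 FPKM in KO, against 2.40 FPKM in WT and fell by 1.27 ± 0.18 (adjusted p = 9.42e-05), and Rragb fell by 1.18 ± 0.12. Lamtor2 (-0.17 ± 0.13) and Rraga (0.20 ± 0.09) were not called. Lamtor2 passed the test after length correction (-0.48, adjusted p = 0.00561) and Rraga with a replicate block (adjusted p = 0.0404).

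Of 30 genes of mTORC1 and its regulators 11 rose and 7 fell (median 0.07, but -0.05 with library totals and -0.01 after length correction), 7 and 4 with DESeq2. The kinase gene Mtor was at 11.04 and 10.5 FPKM in KO, against 13.00 FPKM in WT, a log2 fold change of -0.15 ± 0.10 that was not called, nor was that of Rptor, its scaffold (0.02 ± 0.12). Mtor passed the test with library totals (-0.27, adjusted p = 0.0286) and with upper-quartile factors (-0.26, adjusted p = 0.0338). Several genes of inhibitors rose. Akt1s1, encoding PRAS40, was at 23.1 and 20.3 FPKM in KO, against 12.4 FPKM in WT and rose by 0.91 ± 0.17 (adjusted p = 0.000888), and Tsc1 (0.53 ± 0.11) and Tsc2 (0.48 ± 0.09), of the complex that switches off RHEB, and Deptor (0.47 ± 0.10) rose, though Tsc1 was not called with limma or with the 3 libraries alone. Of the sensors, Sesn2, for leucine, was at 17.97 and 14.8 FPKM in KO, against 46.8 FPKM in WT and fell by 1.39 ± 0.14 (adjusted p = 6.43e-06). Castor2, a relative of the arginine sensor CASTOR1, was at 0.30 and 0.28 FPKM in KO, against 1.24 FPKM in WT and fell by 1.96 ± 0.28. Both KO libraries lay far below WT in these. Of the GATOR1 genes, which restrain the Rag GTPases, Nprl2 rose by 0.65 ± 0.16, a call lost with DESeq2, and Depdc5 fell by 0.72 ± 0.11.

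Among the factors that mTORC1 holds in the cytoplasm, Tfeb was at 32.7 and 25.4 FPKM in KO, against 19.6 FPKM in WT, and it rose by 0.70 ± 0.16 (adjusted p = 0.0037). Tfe3 was at 14.9 and 16.7 FPKM in KO, against 28.3 FPKM in WT, and it fell by 0.75 ± 0.10 (adjusted p = 4.92e-05). The pair thus moved in opposite directions. Fnip2, whose protein binds folliculin, was at 19.5 and 18.97 FPKM in KO, against 7.91 FPKM in WT, and it rose by 1.40 ± 0.10 (adjusted p = 5.83e-07). Flcn, encoding folliculin, rose by 0.50 ± 0.13, and Mitf (0.43 ± 0.20) and Fnip1 (0.01 ± 0.12) were not called. Mitf passed the test after length correction (0.62, adjusted p = 0.0204) and with a replicate block (adjusted p = 0.0472), and its log2 fold change without KO_1 was 0.66. Of the 6 genes of this list 3 rose and 1 fell (median 0.46), but 1 and 1 in a fit of the 3 pluripotent libraries alone, where Tfeb and Flcn were not called. Tfec was listed at 0 in the 3 libraries.

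Genes of the lysosome were higher in KO across its enzymes, its membrane and its proton pump. Of 40 tested hydrolases and cofactors 24 rose and 7 fell (median 0.66, and 0.64 after length correction), 16 of them rising by at least 2-fold, where 8.25% of all genes did so. Of 17 membrane proteins 9 rose and 1 fell (median 0.64), and of 16 subunits of the V-ATPase, the pump that acidifies the lysosome, 14 rose and 0 fell (median 0.88). Summed FPKM was 1573 and 1531 in KO, against 832 in WT, for the hydrolase list, and 979 and 910.4 in KO, against 381 in WT, for the membrane list.

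Beside the list members with the steepest rises (Hexa, Ctsa and Npc2), the beta-mannosidase gene Manba was at 129 and 139 FPKM in KO, against 40.4 FPKM in WT, and it rose by 1.85 ± 0.09 (adjusted p = 3.42e-08). Tpp1, a tripeptidyl peptidase, was at 46.95 and 47.5 FPKM in KO, against 18.1 FPKM in WT, and it rose by 1.51 ± 0.11 (adjusted p = 5.64e-07). The cysteine protease gene Ctsl was at 184 and 157 FPKM in KO, against 69.6 FPKM in WT, and it rose by 1.42 ± 0.12 (adjusted p = 1.66e-06). KO_1 and KO_2 lay close together and well above WT in these 3. The protease gene Ctsb, whose product is cathepsin B, rose by 1.23 ± 0.10 and Ppt1, a thioesterase, rose by 1.04 ± 0.10. The group did not move as 1 block. Ctsh, a further protease gene, was at 0.25 and 0.48 FPKM in KO, against 2.79 FPKM in WT, and it fell by 2.81 ± 0.42 (adjusted p = 0.00016). Ctsf, also a protease gene, fell by 1.13 ± 0.17, and Man2b1, an alpha-mannosidase, fell by 0.65 ± 0.10. With DESeq2 the list held 23 higher and 4 lower genes.

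In the membrane list Lamp1, an abundant glycoprotein of the lysosome's lining, was at 471 and 424 FPKM in KO, against 196 FPKM in WT, and it rose by 1.31 ± 0.11 (adjusted p = 1.68e-06). Tmem192, a membrane protein of unclear role, was at 49.9 and 47.4 FPKM in KO, against 22.5 FPKM in WT, and it rose by 1.24 ± 0.12 (adjusted p = 5.3e-06). Lamp2, the relative of Lamp1, was at 9.02 and 11.6 FPKM in KO, against 10 FPKM in WT, with WT between the KO libraries in FPKM (0.01 ± 0.16, not called). Mcoln1, a calcium channel, was at 24.6 and 25.5 FPKM in KO, against 12.7 FPKM in WT, and it rose by 1.11 ± 0.14 (adjusted p = 3.23e-05). Npc1, the membrane partner of NPC2 in cholesterol export, fell by 0.31 ± 0.11, a call lost after length correction (-0.09), without KO_1 (-0.28), without KO_2 (-0.32), with DESeq2, with no filter on low values and with the 3 libraries alone.

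Of the V-ATPase subunits, Atp6v0b, of the membrane ring, was at 101 and 102 FPKM in KO, against 44.2 FPKM in WT, and it rose by 1.33 ± 0.10 (adjusted p = 9.65e-07). Atp6v0d1, which joins the ring to the catalytic head, was at 219 and 222 FPKM in KO, against 102 FPKM in WT, and it rose by 1.23 ± 0.10 (adjusted p = 9.65e-07). Both KO libraries held more of these subunit genes than WT, which the catalytic subunit gene did not show. Atp6v1a was at 45.8 and 43.1 FPKM in KO, against 51.2 FPKM in WT (-0.08 ± 0.09), and Atp6v0a1 was likewise not called (0.23 ± 0.10). After length correction Atp6v0a1 passed the test (0.35, adjusted p = 0.0106). Atp6v0d2, an osteoclast form, was listed at 0 in the 3 libraries.

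**Figure D1:**
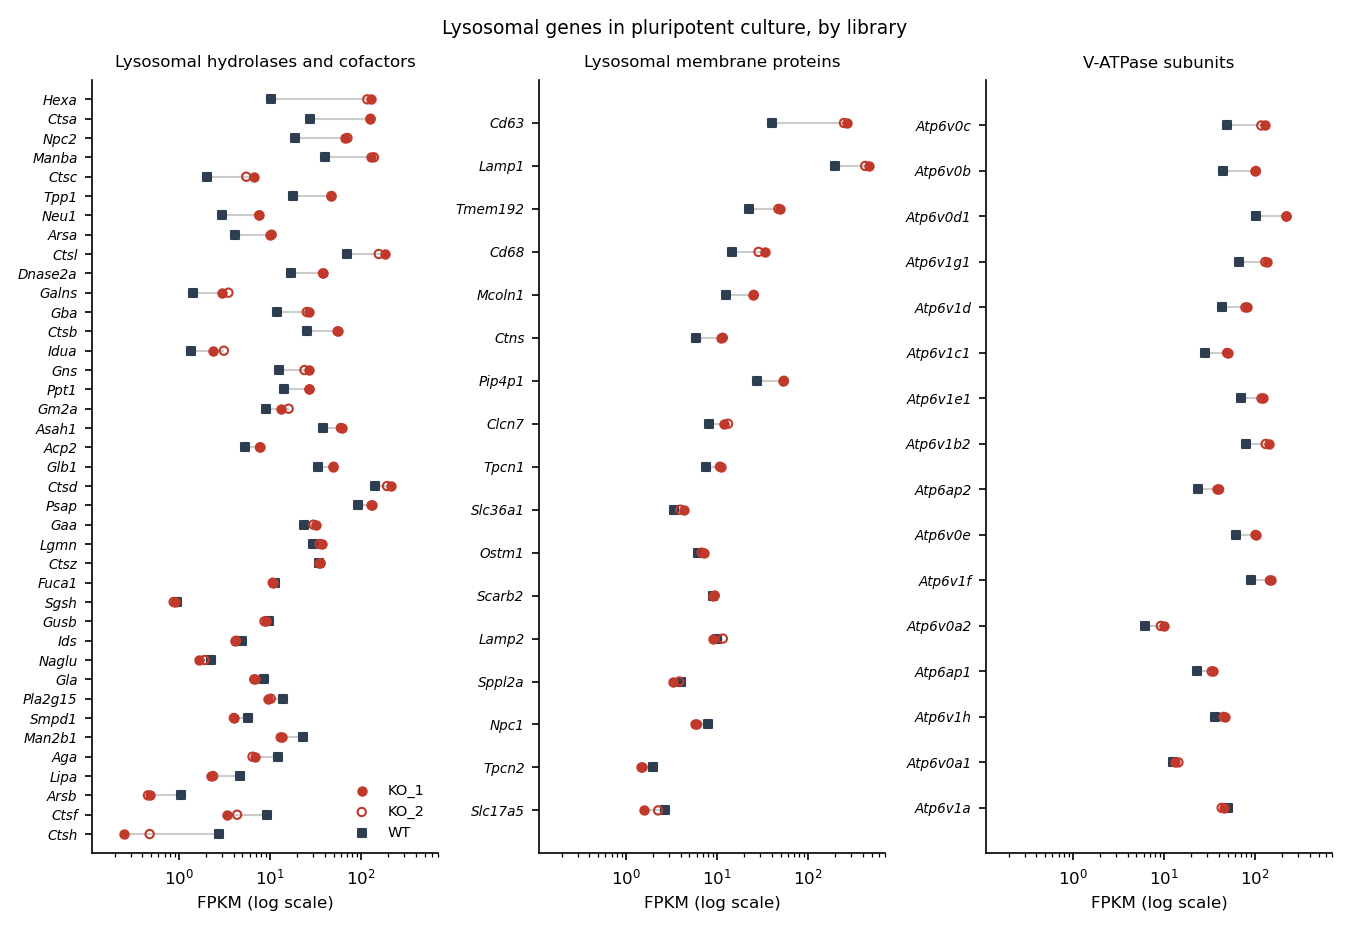
FPKM on a log axis of tested lysosomal hydrolases and cofactors, lysosomal membrane proteins and V-ATPase subunits, a few of them left out, in KO_1 (filled circles), KO_2 (open circles) and WT (squares), ordered by fold change. The KO circles lie close together and to the right of the WT square for most genes, such as Lamp1 at 471 and 424 FPKM in KO, against 196 FPKM in WT, and to its left for Ctsh, Ctsf and a few others.

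TFEB and TFE3 bind an E-box that in many lysosomal promoters reads TCACGTGA. The promoters of these lists were searched for that word, which is its own reverse complement, so that both strands are read at once. A promoter here is 250 bases before to 50 after the gene's start in RefSeq's GRCm38.p6. The word was found in 320 of 32851 promoters (0.974%). Counted by gene, where any promoter of the gene may hold it, the word was found for 235 of 10925 tested genes (2.15%). In the hydrolase, membrane and V-ATPase lists it was found for 10 of 58 genes (17.2%), namely 7 of the 36 that rose and 3 of the other 22. The shorter CACGTG, which lies within TCACGTGA, was found in 7.15% of all promoters and for 20 of these 58 genes (34.5%). Such a match describes letters and not binding. The 4 promoters that follow belong to the genes with the largest rises among those of at least 2-fold that hold the word. They lie at chr2:164833523-164833822 (plus strand, Ctsa, a serine carboxypeptidase), chr8:105566015-105566314 (minus strand, Atp6v0d1), chr8:3500269-3500568 (plus strand, Mcoln1) and chr14:50930800-50931099 (minus strand, Pip4p1, a lysosomal lipid phosphatase). Each runs 5′ to 3′ along its gene, and capitals mark TCACGTGA.
Ctsa: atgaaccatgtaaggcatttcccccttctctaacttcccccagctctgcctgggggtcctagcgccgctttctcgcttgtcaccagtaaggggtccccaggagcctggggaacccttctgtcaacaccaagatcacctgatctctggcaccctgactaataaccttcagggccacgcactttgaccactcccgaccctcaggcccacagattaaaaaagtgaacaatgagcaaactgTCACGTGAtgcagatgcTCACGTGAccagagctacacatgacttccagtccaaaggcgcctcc
Atp6v0d1: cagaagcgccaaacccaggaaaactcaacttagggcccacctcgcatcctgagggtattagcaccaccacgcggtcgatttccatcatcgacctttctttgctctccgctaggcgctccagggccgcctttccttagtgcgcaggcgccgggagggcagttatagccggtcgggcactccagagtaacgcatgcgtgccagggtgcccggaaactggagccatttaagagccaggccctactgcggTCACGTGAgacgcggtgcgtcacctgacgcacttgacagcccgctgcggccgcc
Mcoln1: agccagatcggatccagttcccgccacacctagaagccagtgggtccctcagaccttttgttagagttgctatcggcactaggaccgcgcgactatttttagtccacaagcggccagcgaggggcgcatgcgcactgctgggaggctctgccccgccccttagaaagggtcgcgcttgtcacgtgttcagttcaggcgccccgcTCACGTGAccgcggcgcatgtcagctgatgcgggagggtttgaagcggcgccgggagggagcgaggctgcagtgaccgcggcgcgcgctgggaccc
Pip4p1: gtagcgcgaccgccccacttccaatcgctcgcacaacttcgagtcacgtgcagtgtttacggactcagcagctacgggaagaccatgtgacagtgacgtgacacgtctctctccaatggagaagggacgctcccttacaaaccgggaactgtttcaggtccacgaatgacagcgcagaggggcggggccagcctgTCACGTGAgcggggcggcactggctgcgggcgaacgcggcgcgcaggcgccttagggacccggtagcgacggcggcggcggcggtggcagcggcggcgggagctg

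Ctsa, at 127 and 127 FPKM in KO, against 27.3 FPKM in WT, holds the word at 2 places, the first starting 13 bases before the gene's start. In the other 3 it occurs once, starting 4 (Atp6v0d1), 46 (Mcoln1) and 55 (Pip4p1) bases before the start. Pip4p1 was at 53.02 and 54.5 FPKM in KO, against 27.8 FPKM in WT, and it rose by 1.06 ± 0.13 (adjusted p = 2.76e-05).

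Autophagy genes were mixed, with 13 higher and 8 lower of 30 (median -0.04, but 0.07 after length correction), and 8 and 6 with DESeq2 or 11 and 5 with the 3 libraries alone. The cargo receptor gene Sqstm1 (p62) was at 263 and 243 FPKM in KO, against 80.2 FPKM in WT, and it rose by 1.78 ± 0.10 (adjusted p = 7.36e-08). Gabarap, a coat protein of autophagosomes, was at 154 and 146 FPKM in KO, against 57.7 FPKM in WT, and it rose by 1.5 ± 0.13 (adjusted p = 2.21e-06). Optn, a receptor (1.74 ± 0.19), and Map1lc3b, a coat protein (1.02 ± 0.09), rose with them. The initiating kinase gene Ulk1 was at 27.6 and 29.5 FPKM in KO, against 53.4 FPKM in WT, and it fell by 0.78 ± 0.08 (adjusted p = 8.26e-06). Rb1cc1, its scaffold, fell by 0.88 ± 0.11. Bnip3, a mitophagy receptor, was at 18.1 and 50.6 FPKM in KO, against 164 FPKM in WT, so that KO_2 lay between KO_1 and WT. Bnip3 fell by 2.14 ± 0.36 (adjusted p = 0.000339), a call lost with the 3 libraries alone.

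Genes of the ATF4 response, which raises amino acid synthesis and uptake under stress and which mTORC1 also drives, were lower in KO. Of 29 tested 0 rose and 24 fell (median -1.05, and -1.13 after length correction), and 15 of them fell by at least 2-fold, where 11.6% of all genes did so. Atf4 itself was at 148 and 137 FPKM in KO, against 141 FPKM in WT, with WT between the KO libraries in FPKM (0.09 ± 0.11, not called). Slc1a4, a transporter of small neutral amino acids, was at 1.29 and 1.64 FPKM in KO, against 8.31 FPKM in WT, and it fell by 2.38 ± 0.20 (adjusted p = 1.83e-06). Aldh18a1, which starts proline synthesis, was at 8.07 and 9.40 FPKM in KO, against 24.7 FPKM in WT, and it fell by 1.38 ± 0.10 (adjusted p = 6.7e-07). Both KO libraries lay far below WT. Stc2, a secreted glycoprotein, was at 1.29 and 1.98 FPKM in KO, against 17.2 FPKM in WT, and it fell by 3.27 ± 0.32 (adjusted p = 5.3e-06). Some targets did not move with the rest. Asns, asparagine synthetase, was at 279 and 293 FPKM in KO, against 282 FPKM in WT (0.14 ± 0.08), and the transporter subunit gene Slc3a2 at -0.09 ± 0.08 was not called either.

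Of 20 cytosolic tRNA synthetases, several of which ATF4 induces, 0 rose and 12 fell (median -0.34), none of them by 2-fold. Eprs was at 54.1 and 54.6 FPKM in KO, against 112 FPKM in WT, and it fell by 0.92 ± 0.08 (adjusted p = 1.57e-06). Lars, for leucine, was at 28.8 and 30.3 FPKM in KO, against 61.04 FPKM in WT, and it fell by 0.92 ± 0.10 (adjusted p = 8.3e-06). The KO pair differed by little in both. Among the 8 not called were Hars (0.02 ± 0.10), Qars (0.10 ± 0.09) and Vars (0.11 ± 0.10).

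The word TGATGNAA, a composite element of C/EBP and ATF4, was searched on both strands and found in 1304 of the 32851 promoters (3.97%). Counted by gene as above, it was found for 295 of 10925 tested genes (2.7%). In the ATF4 and synthetase lists it was found for 14 of 38 genes (36.8%), namely 13 of the 30 that fell and 1 of the other 8. The 3 promoters that follow belong to the genes with the largest falls among those of at least 2-fold that hold the word. They are those of Atf3, a stress-induced factor (chr1:191183284-191183583, minus strand), Vldlr, a lipoprotein receptor (chr19:27216770-27217069, plus strand), and Chac1, which degrades glutathione (chr2:119350992-119351291, plus strand), in the same build and orientation. Capitals mark the word, here in the form of its reverse complement.
Atf3: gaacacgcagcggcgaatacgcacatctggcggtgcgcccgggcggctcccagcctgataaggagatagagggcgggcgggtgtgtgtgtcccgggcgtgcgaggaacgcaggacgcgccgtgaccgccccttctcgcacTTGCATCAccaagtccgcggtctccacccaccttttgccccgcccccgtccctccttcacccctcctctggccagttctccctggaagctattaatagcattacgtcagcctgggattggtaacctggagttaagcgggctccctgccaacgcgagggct
Vldlr: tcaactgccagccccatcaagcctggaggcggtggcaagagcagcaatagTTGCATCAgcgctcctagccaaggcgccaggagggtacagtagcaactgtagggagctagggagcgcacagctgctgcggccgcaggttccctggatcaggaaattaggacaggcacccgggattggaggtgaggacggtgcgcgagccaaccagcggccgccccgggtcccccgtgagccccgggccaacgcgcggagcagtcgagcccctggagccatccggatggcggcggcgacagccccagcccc
Chac1: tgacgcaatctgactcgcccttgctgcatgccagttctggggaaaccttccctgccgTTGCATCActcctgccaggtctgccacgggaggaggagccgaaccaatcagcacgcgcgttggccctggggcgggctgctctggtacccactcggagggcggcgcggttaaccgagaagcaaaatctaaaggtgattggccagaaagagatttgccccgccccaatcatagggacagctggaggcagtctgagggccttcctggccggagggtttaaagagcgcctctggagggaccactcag

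The word starts 110 (Atf3), 200 (Vldlr) and 193 (Chac1) bases before the gene's start. Atf3 was at 0.68 and 0.30 FPKM in KO, against 4.33 FPKM in WT, and it fell by 3.0 ± 0.39 (adjusted p = 4.78e-05). Vldlr was at 0.09 and 0.29 FPKM in KO, against 1.16 FPKM in WT, and it fell by 2.47 ± 0.47 (adjusted p = 0.000888), a call lost with the 3 libraries alone. Both genes were low, with both KO libraries below WT.

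Genes of nucleotide synthesis were lower. Of 23 genes of purine and pyrimidine synthesis 14 fell and 3 rose (median -0.46). Prps1, which makes the ribose donor of both pathways, was at 16.5 and 18.5 FPKM in KO, against 77.8 FPKM in WT, and it fell by 2.03 ± 0.13 (adjusted p = 2.14e-07). Gart, of the purine pathway, was at 71.7 and 75.5 FPKM in KO, against 171 FPKM in WT, and it fell by 1.09 ± 0.08 (adjusted p = 4.17e-07). Both lay close together in KO. Prps2 fell by 1.69 ± 0.11, and the thymidylate synthase gene Tyms, at 62.95 and 60.8 FPKM in KO, against 35.9 FPKM in WT, rose by 0.91 ± 0.09. Of 12 genes of the MYC network, which drives many growth genes, 3 rose and 4 fell (median -0.03, but 0.07 after length correction). The share called (58.3%) was near that of all genes (51.8%). Mycn was at 6.81 and 7.89 FPKM in KO, against 37.5 FPKM in WT, and it fell by 2.23 ± 0.12 (adjusted p = 5.87e-08). Myc was at 33.3 and 35.3 FPKM in KO, against 31.7 FPKM in WT and was not called (0.23 ± 0.13). Mycl fell by 1.69 ± 0.20 and Mlxip, a glucose-sensing relative, fell by 1.13 ± 0.12. Of the antagonists of MYC, Mxd1 rose by 1.15 ± 0.21, Mxd3 rose by 0.64 ± 0.10 and Mxi1 fell by 0.88 ± 0.14, while Mlx, of the same network, rose by 0.72 ± 0.13. Max (-0.18 ± 0.08), Mnt (0.03 ± 0.11), Mxd4 (0.15 ± 0.28) and Mga (-0.10 ± 0.09) were not called. After length correction Max passed the test (-0.28, adjusted p = 0.0166) and Mga turned to 0.21 (adjusted p = 0.0473).

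Lipid synthesis genes were lower in part. In cholesterol synthesis and uptake 9 of 24 fell and 3 rose (median -0.08), and 9 and 1 with DESeq2. Dhcr7, of the last steps, was at 8.03 and 8.87 FPKM in KO, against 29.9 FPKM in WT, and it fell by 1.70 ± 0.12 (adjusted p = 5.57e-07). Sqle, a monooxygenase of the same pathway, was not called (-0.03 ± 0.10). Of 10 fatty acid genes 6 fell and 1 rose (median -0.35), 5 and 3 after length correction, and without KO_1 6 fell and 2 rose. Scd2, a desaturase, was at 68.8 and 77.03 FPKM in KO, against 139 FPKM in WT, and it fell by 0.81 ± 0.09 (adjusted p = 1.43e-05). Me1, which supplies NADPH, rose by 0.85 ± 0.12.

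Glycolytic and hypoxia-responsive genes were lower in KO, and KO_2 lay between KO_1 and WT at several of them. Of 20 glycolysis genes 13 fell and 1 rose (median -0.59), and of 19 hypoxia genes 13 fell and 0 rose (median -1.01). Summed FPKM of the hypoxia list was 168 and 270.1 in KO_1 and KO_2, against 587 in WT. Plod2, a collagen-modifying enzyme, was at 11.4 and 19.8 FPKM in KO, against 51.3 FPKM in WT, and it fell by 1.60 ± 0.23 (adjusted p = 0.000129). Pfkfb3, which drives phosphofructokinase, was at 1.84 and 3.50 FPKM in KO, against 10.6 FPKM in WT, and it fell by 1.91 ± 0.28 (adjusted p = 0.000138). KO_1 was the lowest library in both. The glucose transporter gene Slc2a3 was at 196 and 240.1 FPKM in KO, against 486 FPKM in WT, and it fell by 1.04 ± 0.12 (adjusted p = 2.71e-05). Slc16a1, a lactate carrier, fell by 0.76 ± 0.09 with less distance between the KO libraries. Gapdh, at 5787 and 6042 FPKM in KO, against 5926 FPKM in WT, was not called (0.09 ± 0.08), nor was Hk2, a hexokinase (-0.05 ± 0.11), and Pfkm, the muscle phosphofructokinase, rose by 0.70 ± 0.11. With the 3 libraries alone, 4 glycolysis genes and 7 hypoxia genes fell.

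Short genes as a class were higher in KO. Over 10 bins of the tested genes by length, each with about as many genes, the median log2 fold change was 0.32 in the shortest bin (53 to 997 bases) and -0.29 in the longest (5813 bases and more). It was 0.27 and -0.27 in KO_1 and 0.24 and -0.27 in KO_2. Both values are set against the same WT library. Genes under 1000 bases held 9.69% of counts in WT after LIF withdrawal and 12.1% in WT embryoid bodies, so the WT libraries differed among themselves. After correction the medians of the bins lay between -0.02 and 0.03. In the other cultures the slope ran the other way, with -0.11 in the shortest and 0.07 in the longest bin after LIF withdrawal, and -0.20 and 0.14 in embryoid bodies. The part of RNA quality or library preparation in this slope was not tested. Of the 7248 calls 6085 were also made after correction and 0 were reversed, and of 2782 calls of at least 2-fold 2724 were kept.

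**Figure D2:**
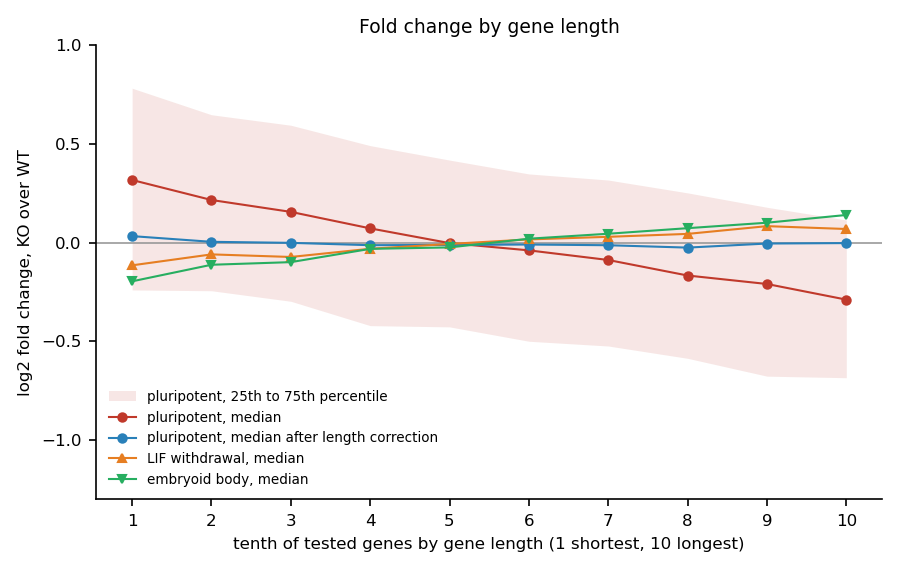
Median log2 fold change (KO over WT) of the tested genes in 10 bins by gene length, the shortest at 1 and the longest at 10, in pluripotent culture before and after length correction and in the other cultures, with the 25th to 75th percentiles of the pluripotent values shaded. The pluripotent line slopes down, with 0.32 in the shortest bin and -0.29 in the longest, the corrected line stays near 0, and the other cultures slope slightly upwards.

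Families made of short genes depended on that correction. Of 87 cytosolic ribosomal proteins 67 rose and 0 fell (median 0.43), and after correction 32 rose and 3 fell (median 0.15). Of 76 nuclear subunits of the respiratory chain 50 rose and 0 fell (median 0.39), and after correction 18 rose and 3 fell (median 0.11), while DESeq2 called 32 higher. Of 78 mitochondrial ribosomal proteins 39 rose and 1 fell (median 0.33), and after correction 18 rose and 8 fell (median 0.11). These 3 families thus held fewer higher genes once length was taken out. The last of them had 17 higher genes with DESeq2, 23 with the 3 libraries alone, and 22 higher and 3 lower genes when scaled by library totals. Rpl39l, a paralog of Rpl39, stood out at 179 and 154 FPKM in KO, against 30.1 FPKM in WT, and it rose by 2.59 ± 0.14 (adjusted p = 6.7e-08), or 2.31 after correction. Many ribosomal protein genes have near-identical copies, so the split of reads among them is uncertain.

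Nucleolar genes of ribosome biogenesis had 5 higher and 9 lower members of 26 (median -0.13). Ncl, nucleolin, was at 159.6 and 146 FPKM in KO, against 268 FPKM in WT, and it fell by 0.68 ± 0.09 (adjusted p = 4.41e-05). Ddx21, a helicase of rRNA synthesis, was at 59.8 and 56.1 FPKM in KO, against 108 FPKM in WT, and it fell by 0.77 ± 0.09 (adjusted p = 2.2e-05). KO libraries lay close together in both. Ubtf, which binds rDNA, rose by 0.35 ± 0.09, a call lost with the 3 libraries alone. The counts were 3 and 9 without KO_1, 6 and 5 without KO_2, 3 and 14 scaled by library totals, 3 and 4 with the 3 libraries alone, and 3 and 9 after length correction.

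D-type cyclins, which link growth signals to the G1 phase, went in different directions. Ccnd2 had 2 and 0 counts in KO, against 284 in WT, a ratio of counts per library total of 0.00364 (0.000439 to 0.0133), with the exact 95% interval, for counting error only, in parentheses. Ccnd1 was at 1.28 and 1.98 FPKM in KO, against 51.7 FPKM in WT, and it fell by 4.86 ± 0.15 (adjusted p = 3.86e-09). Ccnd3 was at 272 and 265 FPKM in KO, against 187 FPKM in WT, and it rose by 0.64 ± 0.10 (adjusted p = 0.00024). Ccnd3 thus had the highest FPKM of the 3 in KO and in WT alike. Their kinase gene Cdk4 rose by 0.63 ± 0.09, the CDK inhibitor gene Cdkn2c, at 1.49 and 2.18 FPKM in KO, against 0.32 FPKM in WT, rose by 2.57 ± 0.51, and Rb1, the target of D cyclins, fell by 1.54 ± 0.13 (adjusted p = 2.06e-06). Of 26 cyclin and G1 genes 7 rose and 9 fell (median -0.10), and 4 and 8 both with DESeq2 and with the 3 libraries alone. Of 22 S and M phase genes 9 rose and 5 fell (median -0.04, but 0.05 after length correction and 0.04 without KO_2). Mcm4, of the replicative helicase, was at 74.7 and 74.6 FPKM in KO, against 144 FPKM in WT, and it fell by 0.82 ± 0.08 (adjusted p = 4.25e-06). Ccnb2, a mitotic cyclin, was at 121 and 113 FPKM in KO, against 75.2 FPKM in WT, and it rose by 0.77 ± 0.10 (adjusted p = 5.72e-05). The counts of that list were 5 and 3 without KO_1, 5 and 8 scaled by library totals, 4 and 3 with the 3 libraries alone, and 5 and 4 after length correction.

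Of 23 genes of p53 and its targets 15 fell and 3 rose (median -0.61). Trp53, encoding p53, was at 96.6 and 96.7 FPKM in KO, against 145 FPKM in WT, and it fell by 0.47 ± 0.09 (adjusted p = 0.0012). The kinase gene Plk2 was at 4.32 and 3.88 FPKM in KO, against 18.6 FPKM in WT, and it fell by 2.06 ± 0.23 (adjusted p = 1.78e-05). Zmat3, an RNA-binding target, fell by 1.22 ± 0.12 and Eda2r, a receptor, fell by 1.11 ± 0.12. Both KO libraries were near each other in these genes. Cdkn1a (p21), at 37.5 and 36.4 FPKM in KO, against 43.9 FPKM in WT, was not called (-0.12 ± 0.14), and Bax, which opens the mitochondrial membrane in apoptosis, was at 241 and 225 FPKM in KO, against 171 FPKM in WT and rose by 0.57 ± 0.11 (adjusted p = 0.00122).

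Markers of ES cells were present in the 3 libraries. Pou5f1 (OCT4) was at 818 and 895 FPKM in KO, against 821 FPKM in WT (0.15 ± 0.09, not called). Nanog was at 233 and 265 FPKM in KO, against 389.8 FPKM in WT, and it fell by 0.60 ± 0.11 (adjusted p = 0.000898). Sox2 was at 169.9 and 186 FPKM in KO, against 282 FPKM in WT, and it fell by 0.54 ± 0.09 (adjusted p = 0.000274). In FPKM, WT lay between the KO libraries for Pou5f1 and above both for Nanog and Sox2, which encode its partner factors. Of 16 core genes 9 fell and 3 rose (median -0.31). Lin28a, which blocks the microRNA let-7, fell by 0.89 ± 0.09 and its paralog Lin28b fell by 2.01 ± 0.20, the growth factor gene Fgf4 fell by 0.83 ± 0.10, and Zfp42 (REX1) fell by 0.31 ± 0.09. Gdf3, a TGF-beta family ligand, was at 76.7 and 71.7 FPKM in KO, against 38.8 FPKM in WT, and it rose by 1.06 ± 0.15 (adjusted p = 8.7e-05). Several smaller calls depended on 1 library or setting. Tdgf1, a Nodal co-receptor (-0.31 ± 0.10), and L1td1 (0.27 ± 0.10) lost theirs without KO_1 (-0.21 and 0.18) and with the 3 libraries alone, and L1td1 also when scaled by library totals or upper quartiles, with limma and with a filter at 2 FPKM. Dppa4 (0.34 ± 0.09) and Sall4 (-0.31 ± 0.08) lost theirs after length correction (0.16 and -0.14). Sall4 was at 79.02 and 83.3 FPKM in KO, against 80.95 FPKM in WT, with WT between the KO libraries in FPKM but above both in counts, at 3166 and 3162 counts in KO, against 4407 in WT, and with limma on FPKM its log2 fold change was 0.0028. Trim28 (-0.25 ± 0.11), Utf1 (0.01 ± 0.12) and Dppa2 (0.11 ± 0.09) were not called, though Trim28 was with a replicate block (adjusted p = 0.019).

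The naive factors were divided, with 8 higher and 6 lower of 17 (median 0.07, but -0.05 with library totals). Tfcp2l1 was at 53.9 and 51.5 FPKM in KO, against 34.1 FPKM in WT, and it rose by 0.75 ± 0.10 (adjusted p = 6.16e-05). Klf2 was at 427 and 453 FPKM in KO, against 284 FPKM in WT, and it rose by 0.75 ± 0.10 (adjusted p = 4.51e-05). Klf4, of the same family, was at 85.6 and 90.5 FPKM in KO, against 155 FPKM in WT, and it fell by 0.69 ± 0.11 (adjusted p = 0.000191). The KO pair was tight in all 3. Tcl1, a cofactor of AKT, rose by 0.90 ± 0.09, the nuclear receptor gene Nr0b1 rose by 0.92 ± 0.14, the homeobox gene Gbx2 rose by 0.95 ± 0.17, and Zfp57, which guards imprints, rose by 0.36 ± 0.08. Esrrb was at 229.9 and 215 FPKM in KO, against 186 FPKM in WT, and it rose by 0.38 ± 0.09 (adjusted p = 0.00423), a call lost with the 3 libraries alone. Prdm14, which represses FGF signalling, was at 5.08 and 6.35 FPKM in KO, against 14.2 FPKM in WT, and it fell by 1.20 ± 0.16 (adjusted p = 5.78e-05). The nuclear receptor gene Nr5a2 fell by 0.85 ± 0.11, Klf5 fell by 0.42 ± 0.08 and Fbxo15 fell by 0.43 ± 0.09. Dppa3 (Stella) was low, at 0.36 and 0.25 FPKM in KO, against 1.66 FPKM in WT, and it fell by 2.26 ± 0.67, a call lost without KO_2 (-2.0) and with DESeq2. Pecam1 (-0.20 ± 0.10), Tbx3 (-0.13 ± 0.09) and Dppa5a (0.07 ± 0.09) were not called, and Dppa5a turned to -0.23 after length correction (adjusted p = 0.0319).

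**Figure D3:**
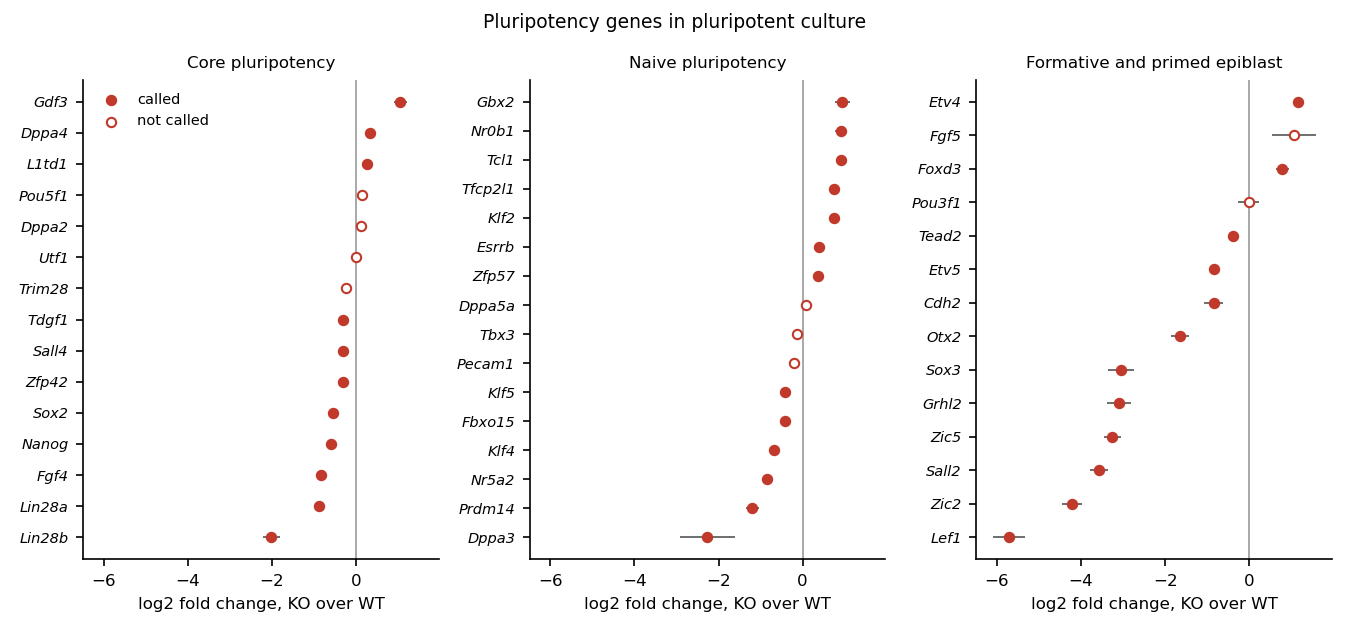
Log2 fold change (KO over WT) with its standard error (bars) of core, naive and formative genes tested in pluripotent culture, a few of them left out. Filled circles were called and open circles were not. Core genes lie mostly a little below 0, naive genes on both sides, and most formative genes far below 0, down to Lef1 at -5.72.

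Genes of the LIF pathway, which sustains the naive state through STAT3, had 7 higher and 4 lower members of 17 (median 0.11, or -0.01 with library totals), but 6 and 0 without KO_2, 5 and 0 with DESeq2, and 5 and 1 with the 3 libraries alone. Socs2, a feedback inhibitor, was at 67.4 and 66.1 FPKM in KO, against 25.9 FPKM in WT, and it rose by 1.47 ± 0.11 (adjusted p = 1e-06). Bcl3, a cofactor of NF-kappaB, was at 60.04 and 60.6 FPKM in KO, against 26.9 FPKM in WT, and it rose by 1.29 ± 0.12 (adjusted p = 4.78e-06). Junb rose by 1.05 ± 0.11 and the kinase gene Pim3 rose by 0.86 ± 0.09. These genes had tight KO pairs above WT. The STAT3 feedback gene Socs3 was at 67.5 and 67.1 FPKM in KO, against 67.98 FPKM in WT (0.11 ± 0.09, not called), and the receptor genes Lifr (0.04 ± 0.10) and Il6st (-0.05 ± 0.12) were not called. After length correction Lifr passed the test (0.34, adjusted p = 0.0119).

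Genes of the formative and primed epiblast were lower. Of 14 genes 10 fell, 7 of them by at least 2-fold, and 2 rose (median -1.25). Zic2 was at 1.20 and 2.50 FPKM in KO, against 37.5 FPKM in WT, and it fell by 4.22 ± 0.24 (adjusted p = 7.38e-08). Otx2 was at 7.94 and 11.5 FPKM in KO, against 32.9 FPKM in WT, and it fell by 1.65 ± 0.22 (adjusted p = 6.36e-05). Lef1, a WNT effector, was at 0.08 and 0.26 FPKM in KO, against 9.47 FPKM in WT, and it fell by 5.72 ± 0.39 (adjusted p = 3.18e-07). KO_1 was the lowest library for each. Sall2 fell by 3.57 ± 0.21, Zic5 fell by 3.25 ± 0.21, Grhl2, an epithelial factor, fell by 3.10 ± 0.29, and Etv5, an ETS factor induced by FGF, fell by 0.84 ± 0.08. Against them Etv4, of the same ETS group, was at 151 and 139 FPKM in KO, against 69.97 FPKM in WT, and it rose by 1.17 ± 0.10 (adjusted p = 2.05e-06). Foxd3 rose by 0.79 ± 0.16, and Pou3f1 (-0.01 ± 0.26) and Fgf5 (1.07 ± 0.52) were not called. In these bulk samples fewer cells of a state and less RNA per cell cannot be told apart.

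Enzymes that write and erase DNA methylation were split, with 2 higher and 3 lower of 9 (2 and 5 scaled by library totals), a share called (55.6%) near that of all genes (51.8%). Dnmt3l, the cofactor of the de novo methyltransferases, was at 648 and 630.3 FPKM in KO, against 203 FPKM in WT, and it rose by 1.78 ± 0.11 (adjusted p = 1.23e-07). Dnmt3a, a de novo methyltransferase, was at 6.07 and 7.38 FPKM in KO, against 29.5 FPKM in WT, and it fell by 1.98 ± 0.11 (adjusted p = 7.81e-08). Dnmt3b, the other, was at 37.3 and 34.3 FPKM in KO, against 41.3 FPKM in WT and was not called (-0.11 ± 0.12). The cofactor and 1 of its partners thus moved in opposite directions. Uhrf1, which guides maintenance methylation, rose by 0.42 ± 0.10. Of the TET enzymes Tet1 fell by 0.41 ± 0.09, a call lost after length correction (-0.10), Tet2 fell by 0.61 ± 0.12, a call lost with the 3 libraries alone, and Tet3 (0.23 ± 0.22) was not called, nor were Dnmt1 (-0.17 ± 0.09) and Tdg (-0.77 ± 0.31), though Tdg was with a replicate block (adjusted p = 0.0301).

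Of 23 FGF and ERK feedback genes 12 rose and 5 fell (median 0.56). Among the ligands Fgf15 was at 0.80 and 1.25 FPKM in KO, against 19.2 FPKM in WT, and it fell by 4.10 ± 0.21 (adjusted p = 4.44e-08). Fgf17 was at 0.86 and 0.82 FPKM in KO, against 14.9 FPKM in WT, and it fell by 4.01 ± 0.23 (adjusted p = 7.67e-08). Both KO libraries were far below WT. Several feedback genes rose. Dusp6, a phosphatase of ERK, was at 58.7 and 52.1 FPKM in KO, against 20.9 FPKM in WT, and it rose by 1.53 ± 0.14 (adjusted p = 3.17e-06). Phlda1, an ERK target, was at 44.9 and 37.6 FPKM in KO, against 11.5 FPKM in WT, and it rose by 1.97 ± 0.16 (adjusted p = 1.67e-06). Dusp4 rose by 2.06 ± 0.27, and Spry4, an inhibitor of receptor signalling, rose by 0.53 ± 0.08. The receptor gene Fgfr4 was at 13.04 and 11.7 FPKM in KO, against 2.11 FPKM in WT, and it rose by 2.67 ± 0.18 (adjusted p = 3.64e-07), while Fgfr1 was not called (-0.14 ± 0.09). Fgf8, a further ligand, had 2 and 6 counts in KO, against 0 in WT, at least 1.38-fold higher when WT is set at 3 counts, a call lost without KO_2, with DESeq2 and with the 3 libraries alone.

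Bmp4, a BMP ligand, was at 223 and 209.99 FPKM in KO, against 25.3 FPKM in WT, and it rose by 3.22 ± 0.17 (adjusted p = 5.87e-08). The ID genes, which BMP signals induce, did not move together. Id1 was at 199.8 and 248 FPKM in KO, against 126 FPKM in WT, and it rose by 0.96 ± 0.12 (adjusted p = 3.51e-05). Id3 was at 19.4 and 23.3 FPKM in KO, against 53.1 FPKM in WT, and it fell by 1.19 ± 0.12 (adjusted p = 7.17e-06). Id2 fell by 1.95 ± 0.17, so these BMP targets lay on both sides of WT. The BMP list had 5 higher and 8 lower of 17 (median -0.41), but 3 and 6 without KO_1, 3 and 7 without KO_2, 2 and 4 with DESeq2, and 3 and 5 with the 3 libraries alone.

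In the Nodal and TGF-beta list 3 rose and 9 fell of 19 (median -0.54), and 5 and 9 after length correction. Lefty2, an inhibitor of Nodal, was at 119 and 132 FPKM in KO, against 56.8 FPKM in WT, and it rose by 1.27 ± 0.10 (adjusted p = 1.03e-06). Inhbb, an activin subunit, was at 4.67 and 4.62 FPKM in KO, against 22.04 FPKM in WT, and it fell by 2.12 ± 0.15 (adjusted p = 4.66e-07). Smad3, a transducer, fell by 3.21 ± 0.25, and Skil, which restrains SMADs, fell by 1.79 ± 0.17. Nodal itself, at 36.5 and 35.1 FPKM in KO, against 45.1 FPKM in WT, was not called (-0.21 ± 0.12). In the WNT list 4 rose and 7 fell of 19 (median -0.22), a share called (57.9%) near that of all genes (51.8%). Wnt6 was at 15.3 and 14.02 FPKM in KO, against 3.15 FPKM in WT, and it rose by 2.34 ± 0.22 (adjusted p = 4.47e-06). Axin2, a feedback gene of the pathway, was at 2.50 and 2.16 FPKM in KO, against 6.35 FPKM in WT, and it fell by 1.32 ± 0.15 (adjusted p = 1.83e-05). The effector gene Tcf7 fell by 1.10 ± 0.13 and Ctnnb1 (beta-catenin) was not called (0.20 ± 0.08). Ctnnb1 passed the test after length correction (0.28, adjusted p = 0.0158), with no filter on low values (adjusted p = 0.0475) and with a replicate block (adjusted p = 0.0265). The counts were 4 and 4 without KO_1, 3 and 4 with DESeq2, 2 and 3 with the 3 libraries alone, and 7 and 6 after length correction.

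Adhesion genes of epithelia were lower and mesenchymal genes higher in KO. Of 13 epithelial genes 10 fell and 2 rose (median -1.44). Cdh1 (E-cadherin) was at 48.3 and 52.7 FPKM in KO, against 149 FPKM in WT, and it fell by 1.44 ± 0.09 (adjusted p = 1.48e-07). Esrp1, a splicing factor of epithelia, had 4 and 8 counts in KO, against 345 in WT, and it fell by 5.65 ± 0.27 (adjusted p = 3.39e-08). The tight junction genes Cldn6 and Ocln fell by 2.16 ± 0.13 and 3.17 ± 0.26. Krt8, a keratin, went against them, at 40.8 and 34.4 FPKM in KO, against 14.4 FPKM in WT, and it rose by 1.51 ± 0.15 (adjusted p = 5.3e-06), as did Cldn4 (1.12 ± 0.15). Of 5 mesenchymal genes 4 rose (median 1.45). Vim (vimentin) was at 408 and 379.7 FPKM in KO, against 157 FPKM in WT, and it rose by 1.45 ± 0.11 (adjusted p = 1.02e-06). The repressors of E-cadherin Snai1 and Zeb1 rose by 1.72 ± 0.21 and 1.04 ± 0.13, and Twist1 rose by 1.63 ± 0.40, a call lost with the 3 libraries alone.

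Of 12 basement membrane genes 11 rose and 1 fell (median 0.59, and 0.83 after length correction). The collagen gene Col4a2 was at 18.7 and 18.9 FPKM in KO, against 4.57 FPKM in WT, and it rose by 2.17 ± 0.13 (adjusted p = 1.65e-07). Fn1 (fibronectin) was at 129 and 133 FPKM in KO, against 84.2 FPKM in WT, and it rose by 0.74 ± 0.08 (adjusted p = 1.34e-05). These long genes lay above WT against the slope of length. Lamb1, a laminin chain, was the exception at 2.42 and 3.01 FPKM in KO, against 20.4 FPKM in WT, and it fell by 2.78 ± 0.15 (adjusted p = 6.43e-08), while its counterpart Lamb2 rose by 0.85 ± 0.12.

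Markers of other cell types that such a culture could hold were mostly low, and their part in these results was not tested. Of 5 tested of 12 fibroblast and feeder markers 4 fell and 0 rose, with FPKM summing to 21.3 and 26.5 in KO, against 45.8 in WT, mostly Thy1, and Col3a1, S100a4 and Postn were at 0 in KO. Of 6 tested of 12 neuroectoderm markers 4 fell and 1 rose, with sums of 56.7 and 55.4 in KO, against 131 in WT, mostly the tubulin gene Tubb3, and Fabp7 was at 0 in the 3 libraries. Of 6 tested of 11 blood and endothelium markers 4 fell and 0 rose, with sums of 5.57 and 5.99 in KO, against 21.2 in WT, and Hba-x was at 0 in KO. Kdr, an endothelial gene counted outside that list, went the other way, at 1.22 and 1.05 FPKM in KO, against 0.32 FPKM in WT. Of 6 tested of 12 mesoderm and cardiac markers 2 rose and 2 fell, with sums of 67.4 and 77.7 in KO, against 69.9 in WT, mostly Tcf15, and Hand2 was at 0 in the 3 libraries. Tcf15 (0.40 ± 0.11) was not called without KO_2 (0.34), after length correction (0.15), with DESeq2, with limma, scaled by library totals or with the 3 libraries alone, each of which left 1 higher gene in that list. Of 8 tested of 12 primitive streak markers 1 rose, Fgf8, and 1 fell, Eomes (-0.75 ± 0.19), and without KO_2 0 rose. They summed to 5.56 and 5.70 in KO, against 7.82 in WT, mostly Eomes, and Cer1 was at 0 in the 3 libraries.

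Markers of the extraembryonic lineages were uneven. Of 12 tested of 18 extraembryonic endoderm markers 6 rose and 4 fell (median 0.91, or -0.44 with no filter on low values), with sums of 1433 and 1279 in KO, against 217 in WT, mostly Apoe, a lipid carrier, at 1202 and 1063 FPKM in KO, against 98.8 FPKM in WT. The next in level was Sparc, a matrix glycoprotein, at 191 and 181 FPKM in KO, against 103 FPKM in WT, and it rose by 0.98 ± 0.12. The defining factor Gata6 was at 1.86 and 1.16 FPKM in KO, against 0.73 FPKM in WT. Its call as higher was lost without KO_1 (0.77), with DESeq2, with limma, with library totals and with the 3 libraries alone. Gata4 was not called (0.84 ± 0.41), and Sox17 was at 0.30 and 0.18 FPKM in KO, against 0.14 FPKM in WT. Hnf4a, of visceral endoderm, was at 4.72 and 4.74 FPKM in KO, against 1.49 FPKM in WT, and it rose by 1.79 ± 0.18 (adjusted p = 6.07e-06), and Lrp2 (megalin), of the same tissue, fell by 3.53 ± 0.15. Of 11 trophoblast genes 4 rose and 4 fell. Hand1, of giant cells, was at 12.4 and 10.1 FPKM in KO, against 0.70 FPKM in WT, and it rose by 4.13 ± 0.39 (adjusted p = 4.27e-06). Tfap2c was at 2.34 and 4.60 FPKM in KO, against 15.9 FPKM in WT, and it fell by 2.10 ± 0.26 (adjusted p = 3.39e-05). The lineage factors Cdx2 and Elf5 were at most 0.22 FPKM in any of the 3 libraries.

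Genes of the 2-cell-like state, which a few ES cells enter at a time, were lower. Of 9 tested 8 fell and 0 rose (median -3.32), and the FPKM of the list summed to 9.52 and 15.8 in KO, against 127 in WT. Zscan4f, a telomere regulator, was at 4.96 and 8.02 FPKM in KO, against 63.3 FPKM in WT, and it fell by 3.16 ± 0.21 (adjusted p = 2.66e-07). The Zscan4, Usp17l and Tcstv families have near-identical copies, so single members are uncertain. Of 17 germline genes 9 fell and 2 rose (median -0.62), 5 and 2 with DESeq2 and 5 and 1 with the 3 libraries alone. Sycp3, of the meiotic chromosome axis, was at 3.46 and 4.85 FPKM in KO, against 23.4 FPKM in WT, and it fell by 2.37 ± 0.22 (adjusted p = 4.05e-06). Ddx4 (VASA) was at 2.87 and 3.42 FPKM in KO, against 13.99 FPKM in WT, and it fell by 2.05 ± 0.17 (adjusted p = 1.73e-06). Magea4 went the other way, with 138 and 129 counts in KO, against 2 in WT, a ratio of 69.1 (18.9 to 573).

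Antigen presentation genes showed large differences of both signs, with 6 higher and 5 lower of 15 (4 and 3 with DESeq2). H2-Eb1, an MHC class II chain, was at 42.2 and 39.8 FPKM in KO, against 0.40 FPKM in WT. B2m, the light chain of class I, was at 128 and 128 FPKM in KO, against 28.5 FPKM in WT, and it rose by 2.29 ± 0.12 (adjusted p = 5.5e-08). H2-K1, a class I heavy chain, was at 12.98 and 14.9 FPKM in KO, against 34.3 FPKM in WT, and it fell by 1.17 ± 0.19 (adjusted p = 0.000269). The light and heavy chain genes thus went apart. The peptide transporter gene Tap1 fell by 2.45 ± 0.23 and Nlrc5, the class I transactivator, fell by 3.93 ± 0.36, both at low levels. H2 genes resemble one another, so their reads may be split. Among interferon-induced genes 3 rose and 3 fell of 10. Ifitm1 was at 11.6 and 14.6 FPKM in KO, against 112 FPKM in WT, and it fell by 2.98 ± 0.13 (adjusted p = 1.63e-08). Bst2 (tetherin) rose by 0.87 ± 0.11 (adjusted p = 3.93e-05). Of 10 targets of NRF2, the oxidative stress factor, 4 rose and 1 fell, and 3 and 3 scaled by library totals or 4 and 3 after length correction. Nqo1, a quinone reductase, was at 83.7 and 70.4 FPKM in KO, against 28.1 FPKM in WT, and it rose by 1.58 ± 0.25 (adjusted p = 0.000217). Among the lists whose share called was near that of all genes (51.8%) were also those of NRF2 targets, cholesterol genes, mitochondrial ribosomal proteins (51.3%) and nucleolar genes (53.8%).

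Imprinted genes had 10 higher and 10 lower members of 26. Of the noncoding transcripts of 1 cluster, Meg3 was at 5.95 and 3.47 FPKM in KO, against 0.51 FPKM in WT, and it rose by 3.60 ± 0.68 (adjusted p = 0.000797). Rian was at 6.83 and 3.59 FPKM in KO, against 0.44 FPKM in WT, and it rose by 3.67 ± 0.65 (adjusted p = 0.000502). Mirg had 44 and 22 counts in KO, against 0 in WT, at least 11.4-fold higher when WT is set at 3 counts. KO_1 was the higher KO library for each. Dlk1, a protein-coding gene of that cluster, was at 0.20 and 0.22 FPKM in KO, against 0.78 FPKM in WT. Peg10 was at 146 and 137 FPKM in KO, against 47.01 FPKM in WT, and it rose by 1.72 ± 0.12 (adjusted p = 4.21e-07), and its neighbour Sgce rose by 1.91 ± 0.22. Kcnq1ot1, a long noncoding RNA, rose by 1.45 ± 0.09. Peg3 was at 1.93 and 1.92 FPKM in KO, against 9.03 FPKM in WT, and it fell by 2.11 ± 0.15 (adjusted p = 5.59e-07). Y-linked genes were present in the 3 libraries, and 4 of 5 rose, with Zfy1 at 3.68 and 4.71 FPKM in KO, against 1.28 FPKM in WT and with Uty not called (-0.14 ± 0.12). With DESeq2, with library totals and after length correction 3 rose, as Eif2s3y lost its call. With limma Eif2s3y and Ddx3y lost theirs.

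**Figure D4:**
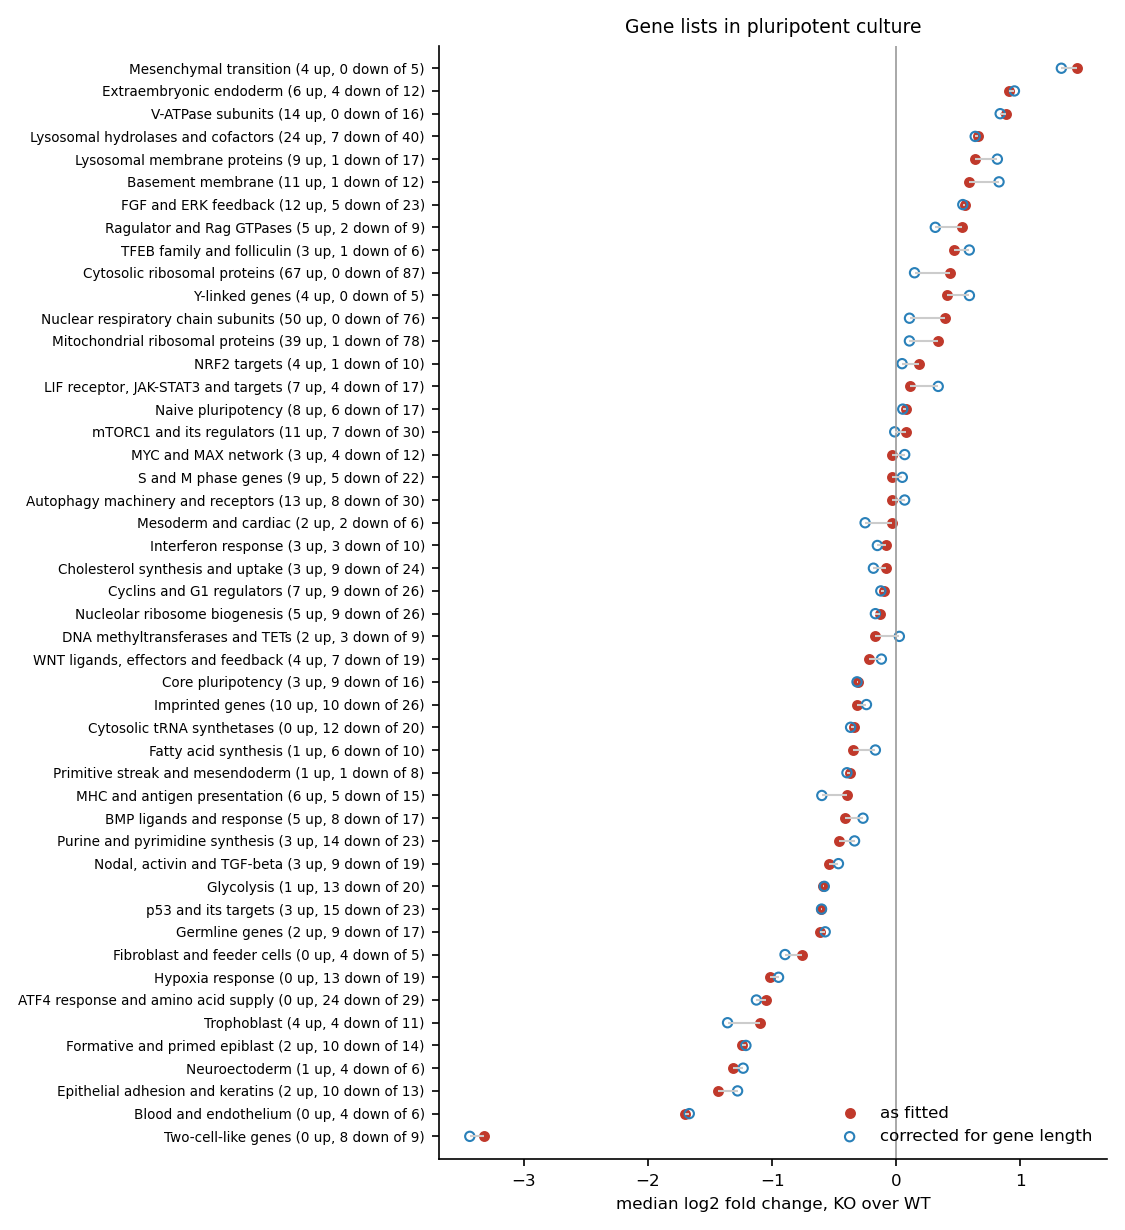
Median log2 fold change (KO over WT) of each gene list with at least 5 tested genes, as fitted (filled) and corrected for gene length (open), with the numbers called higher and lower of those tested beside each name. The mesenchymal list stands furthest right at 1.45 and the 2-cell-like list furthest left at -3.32, and correction moves the ribosomal protein and respiratory chain lists towards 0.

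By fold change, several of the steepest rises had almost no reads in WT. H2ac24, a histone gene, had 342 and 289 counts in KO, against 1 in WT, a ratio of counts per library total of 327 (58.4 to 12910). Aox3, an aldehyde oxidase, had 188 and 156 counts in KO, against 2 in WT, a ratio of 88.99 (24.5 to 738). Fam177a had 90 and 56 counts in KO, against 0 in WT, at least 25.2-fold higher when WT is set at 3 counts, a call lost with limma. These genes were near or at 0 in WT. Mrgpra6, a receptor gene with near-identical relatives, and 2 other genes of high level led by the size of the difference in FPKM. Whether the reads counted for Mrgpra6 come from that gene was not tested. Mrgpra6 was at 2089.6 and 1946 FPKM in KO, against 456 FPKM in WT, and it rose by 2.27 ± 0.11 (adjusted p = 3.42e-08). Ftl1, the ferritin light chain, was at 6235 and 5898 FPKM in KO, against 2516 FPKM in WT, and it rose by 1.39 ± 0.13 (adjusted p = 3.91e-06). Hspb1, a small heat shock protein, was at 2062 and 1902 FPKM in KO, against 588 FPKM in WT, and it rose by 1.88 ± 0.15 (adjusted p = 1.19e-06). Each was far above WT in both KO libraries. The ferritin and histone genes have near-identical copies, and reads may be split among them, as for Fthl17e, Defa23 and the pseudogene Alms1-ps2.

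Of the steepest falls, Car12, a carbonic anhydrase, had 0 and 3 counts in KO, against 158 in WT, a ratio of 0.00982 (0.002 to 0.0292). Ncan, a brain proteoglycan, was at 0.10 and 0.25 FPKM in KO, against 6.35 FPKM in WT, and it fell by 5.05 ± 0.36 (adjusted p = 5.11e-07). AF067061 had 2 and 0 counts in KO, against 44 in WT, a ratio of 0.0235 (0.00276 to 0.0901). Hardly any reads of these remained in KO. H2-Q9 had 0 and 0 counts in KO, against 64 in WT, at least 41.2-fold lower when KO is set at 3 counts over both libraries, a call lost with DESeq2 and limma, and H2ac7 had 0 and 0 counts in KO, against 20 in WT, at least 12.9-fold lower, a call lost with DESeq2. By FPKM, the largest falls outside glycolysis were those of Ptma, Npm1 and Set, abundant nuclear proteins. Ptma was at 2084 and 2077 FPKM in KO, against 2923 FPKM in WT, and it fell by 0.37 ± 0.10 (adjusted p = 0.00669). Set was at 441 and 442 FPKM in KO, against 728 FPKM in WT, and it fell by 0.60 ± 0.08 (adjusted p = 6.99e-05). Npm1 fell by 0.23 ± 0.08, a call lost without KO_2 (-0.17), with no filter on low values and with the 3 libraries alone.

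Each culture had its own WT library and KO pair, so the genotype difference was compared between cultures by a test of the difference itself. Of 13990 genes 4528 (32.4%) differed between pluripotent culture and LIF withdrawal and 5857 (41.9%) between pluripotent culture and embryoid bodies, and both contrasts share the pluripotent libraries. In 10 of 17 naive genes KO over WT was lower in pluripotent culture than after LIF withdrawal, and in 2 it was higher. Against embryoid bodies KO over WT was lower in 12 of them and higher in 1. Their median log2 fold change was 0.07 in pluripotent culture, against 1.19 on LIF withdrawal and 1.08 in embryoid bodies. Klf4 was at 60.3 and 58.00 FPKM in KO, against 21.1 FPKM in WT after LIF withdrawal. In embryoid bodies it was at 51.7 and 41.6 FPKM in KO, against 17.3 FPKM in WT. KO thus lay above WT in both and below it in pluripotent culture, a difference of -2.24 ± 0.16 (adjusted p = 4.17e-06) from LIF withdrawal and of -2.12 ± 0.17 (adjusted p = 4.05e-06) from embryoid bodies. Tbx3, not called in pluripotent culture, was at 81.8 and 85.1 FPKM in KO, against 37.5 FPKM in WT after LIF withdrawal (1.21 ± 0.09). It was at 73.3 and 65.8 FPKM in KO, against 26.1 FPKM in WT in embryoid bodies (1.41 ± 0.10), and the differences between cultures were -1.34 ± 0.12 (adjusted p = 2.07e-05) and -1.54 ± 0.13 (adjusted p = 5.4e-06). Nanog, by contrast, was at 164 and 164 FPKM in KO, against 215 FPKM in WT after LIF withdrawal, with a difference between cultures of -0.27 ± 0.17 that did not pass (adjusted p = 0.231).

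The medians of other groups also differed between cultures. Among 87 cytosolic ribosomal proteins KO over WT was higher for 78 and lower for 0 in pluripotent culture than after LIF withdrawal. Against embryoid bodies KO over WT was higher for 79 and lower for 1, with medians of 0.43, -0.28 and -0.33 in the 3 cultures. Their lengths are short, and the slope of length had the same signs. In the ATF4 list KO over WT was higher for 0 genes and lower for 10 than after LIF withdrawal. Against embryoid bodies KO over WT was higher for 1 and lower for 21, with medians of -1.05, -0.85 and -0.20. The 10 genes of 29 in this list are near the share of all genes that differed from LIF withdrawal (32.4%). The hydrolase medians were 0.66, 0.36 and 0.54. Here KO over WT was higher for 15 of 40 and lower for 5 than after LIF withdrawal. Against embryoid bodies KO over WT was higher for 13 and lower for 8.

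Single genes turned or kept their direction. B2m was at 42.4 and 40.5 FPKM in KO, against 45.02 FPKM in WT after LIF withdrawal, a difference between cultures of 2.35 ± 0.17 (adjusted p = 2.96e-06). In embryoid bodies it was at 86.4 and 76.5 FPKM in KO, against 75.6 FPKM in WT (2.19 ± 0.16, adjusted p = 2.32e-06). The log2 fold changes were -0.06 ± 0.12 after LIF withdrawal and 0.10 ± 0.10 in embryoid bodies, so B2m was far from WT in pluripotent culture alone among the 3. Hand1 was at 0.88 and 0.34 FPKM in KO, against 1.64 FPKM in WT after LIF withdrawal, a difference of 5.48 ± 0.62 (adjusted p = 7.18e-05). Dnmt3l kept its rise, at 596 and 527 FPKM in KO, against 144 FPKM in WT after LIF withdrawal (2.02 ± 0.11, adjusted p = 1.04e-07). It was at 609 and 586 FPKM in KO, against 129 FPKM in WT in embryoid bodies (2.21 ± 0.11, adjusted p = 6.07e-08). Bmp4 was above WT in all 3 cultures, at 56.6 and 46.5 FPKM in KO, against 7.78 FPKM in WT after LIF withdrawal (2.80 ± 0.20, adjusted p = 6.71e-07).

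**Figure D5:**
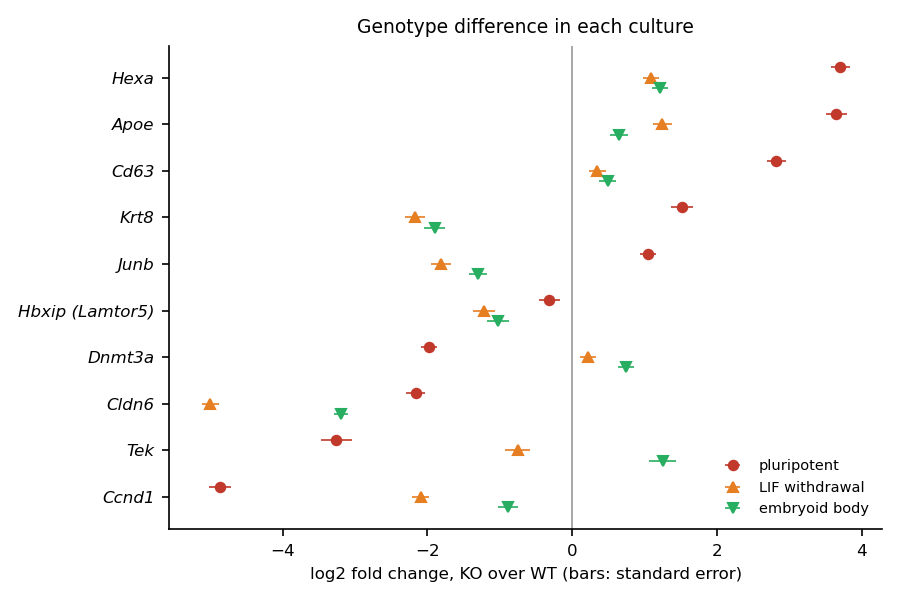
Log2 fold change (KO over WT) with its standard error of 10 genes in the 3 cultures, drawn as circles for pluripotent culture, upward triangles for LIF withdrawal and downward triangles for embryoid bodies. Krt8 and Junb lie above 0 in pluripotent culture and below 0 in the others, Dnmt3a lies below 0 in pluripotent culture alone, and Hbxip is nearest to 0 in pluripotent culture.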

How the data were processed

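RNA-seq libraries of Hbxip-/- (KO) and wild-type (WT) E14 mouse ES cells were analysed, 9 in all and 3 from pluripotent culture. The authors deposited tables that give, per the file headers, an expected count and an FPKM value estimated for each listed gene, with its length. A gene not listed in a table was set to 0. Bowtie2 and the mm8 build are named in the submitters' processing notes, and the quantifier, the annotation and whether counting used strand are not given in the sources used here. Of 20287 gene IDs 20234 were matched to symbols by gene ID and 9 by accession, and 44 were unmatched.

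Expected counts were rounded and tested with edgeR 4.0.16 (quasi-likelihood, R 4.3.3) after TMM scaling, with 6 group means over the 9 libraries, for the 13990 genes whose mean FPKM reached 0.5, and p-values were adjusted by the Benjamini-Hochberg method. WT had 1 library a culture, so the spread came from the 3 KO pairs (3 residual degrees of freedom). Standard errors were derived from the test's F. A group at 0 counts was set at 3 counts over the group for a bound on a fold change, and with 1 to 3 counts the ratio is given with its exact 95% binomial interval. Such floors and intervals cover counting error only. Library totals were 10147277 to 10863845. Length correction fitted a loess curve (span 0.3) on log length in each library. It was fitted to each gene's log2 CPM minus that gene's mean over the 9 libraries, and entered the test as an offset. The test was checked on simulated data in which WT varied as the KO pairs do, so that assumption itself was not checked.

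The members and gene lists were chosen with earlier results of these data known. Named genes are the 10 largest rises and falls in log2 fold change where mean FPKM reached 1, the 8 largest rises and falls in FPKM, up to 6 called members of each list with the smallest p and up to 3 called against its direction, every member of the Ragulator, TFEB, MYC, core and naive pluripotency, cyclin and DNA methylation lists, and the 5 smallest p-values of each test between cultures. A further 40 genes, among them Otx2, Trp53, Meg3, Rian, Atf3 and Vldlr and most of the list members reported as not called, were chosen after their values were seen. A few genes counted in the lists are not reported here by name. WT libraries carry no number, so KO and WT were not paired, while KO_1 and KO_2 recur in the 3 cultures and their difference correlated at 0.382, 0.101 and 0.128 between cultures. The labels do not say what the numbers mark, and the fit with them as a replicate block is an alternative. Alternatives were DESeq2 1.42.0, library totals, upper-quartile factors, other filters, limma 3.58.1 on log2(FPKM + 1) or log2(FPKM + 0.1), the 3 libraries alone, length correction, a replicate block and leaving out each KO library.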

Additional observations from a re-analysis of the deposited data

Results flagged for a closer look

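The results below stood out because the difference between KO and WT in pluripotent culture differed from that in another culture, by edgeR's quasi-likelihood test of the difference itself with Benjamini-Hochberg adjustment. Apart from Hbxip, they are the 5 genes with the smallest p of each test among the named genes. A value is the log2 fold change (KO over WT) in pluripotent culture minus that in the other culture.

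Against LIF withdrawal, Krt8, a keratin gene, had 3.68 (adjusted p = 6.4e-07), with a log2 fold change of 1.51 ± 0.15 in pluripotent culture and of -2.17 ± 0.14 after LIF withdrawal. Junb, an AP-1 subunit gene, had 2.87 (adjusted p = 1.24e-06), with 1.05 ± 0.11 and -1.82 ± 0.14. Both lay above WT in pluripotent culture and below it after LIF withdrawal. Hexa, of a lysosomal hexosaminidase, had 2.61 (adjusted p = 1.5e-06), with 3.70 ± 0.13 and 1.09 ± 0.11. Cd63, of a lysosomal membrane protein, had 2.47 (adjusted p = 2.63e-06), with 2.82 ± 0.13 and 0.35 ± 0.12. Cldn6, of a tight junction protein, had 2.83 (adjusted p = 2.37e-06), with -2.16 ± 0.13 and -5.0 ± 0.12, so it lay below WT in both.

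Against embryoid bodies, the cyclin gene Ccnd1 had -3.98 (adjusted p = 4.01e-07), with -4.86 ± 0.15 in pluripotent culture and -0.88 ± 0.14 in embryoid bodies. Apoe, of a lipid carrier, had 2.99 (adjusted p = 7.45e-07), with 3.65 ± 0.15 and 0.65 ± 0.12. Dnmt3a, of a DNA methyltransferase, had -2.72 (adjusted p = 7.45e-07), with -1.98 ± 0.11 and 0.74 ± 0.11. Krt8 had 3.41 (adjusted p = 7.96e-07), with -1.90 ± 0.14 in embryoid bodies. Tek, an endothelial receptor gene, had -4.51 (adjusted p = 1.08e-06), with -3.26 ± 0.21 and 1.25 ± 0.19. Dnmt3a and Tek thus lay below WT in pluripotent culture and above it in embryoid bodies. These 10 differences kept an adjusted p below 0.05 in every alternative that was run for them.

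Hbxip, the targeted gene, had 0.91 (adjusted p = 0.00785) against LIF withdrawal and 0.71 (adjusted p = 0.0199) against embryoid bodies. Its level was 16.2 and 15.5 FPKM in KO, against 38.5 FPKM in WT after LIF withdrawal. In embryoid bodies its level was 22.99 and 18.3 FPKM in KO, against 41.8 FPKM in WT. The log2 fold changes there were -1.22 ± 0.16 and -1.02 ± 0.15, against -0.31 ± 0.15 in pluripotent culture. The difference from LIF withdrawal did not pass with DESeq2 (adjusted p = 0.0692) or after length correction (0.55, adjusted p = 0.0654). That from embryoid bodies did not pass with DESeq2 (adjusted p = 0.148), with limma at either pseudocount (adjusted p = 0.0523 and 0.0583), after length correction (0.31, adjusted p = 0.255) or without KO_1 (0.65, adjusted p = 0.0548).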

How the results depend on the processing

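The depth allows no statement on genes near 3 counts, and WT has no replicate check. The reported counts are 3574 higher and 3674 lower genes (1154 and 1628 past 2-fold). DESeq2 called 2381 higher and 2411 lower genes, and found 2374 differences between pluripotent culture and LIF withdrawal and 3284 between pluripotent culture and embryoid bodies. At least 2-fold, limma on log2(FPKM + 1) called 718 higher and 1026 lower genes, and a filter at 2 FPKM left 966 lower ones. Scaled by library totals, the median of all genes was -0.13 and 38.5% of called genes were higher, against 49.3% as reported, with 39.5% for upper-quartile factors and 40.0% for limma on log2(FPKM + 1). Without 1 KO library the counts ranged over 2971 to 3241 higher, 3013 to 3275 lower, 1066 to 1165 and 1412 to 1689 of at least 2-fold, 3650 to 4213 differences from LIF withdrawal and 4875 to 5391 from embryoid bodies.

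Hbxip passed the test with library totals (-0.44, adjusted p = 0.0273), upper-quartile factors (-0.43, adjusted p = 0.0295), limma (-0.43, adjusted p = 0.0342, and -0.44, adjusted p = 0.0394), length correction (-0.58, adjusted p = 0.00434) and the replicate block (-0.32, adjusted p = 0.0438), and ranged over -0.38 to -0.25 without 1 KO library. With the replicate block 3873 genes rose and 3961 fell, 5436 differed from LIF withdrawal and 6626 from embryoid bodies, and no named gene lost its call, while 10 were newly called. The sign turned for Mga (0.21 after length correction), Dppa5a (-0.23 after length correction) and Sall4 (0.0028 with limma). The median of 5 lists turned after length correction and of 3 with library totals. Of 410 named genes, 25 lost their call with DESeq2, 41 with the 3 libraries alone, 12 after length correction, 11 without KO_1 and 9 without KO_2, and 15 were newly called with library totals and 9 after length correction. Newly called with library totals were, among others, Mtor, Max, Tbx3, Pecam1, Trim28, Dnmt1, Tdg, Nodal, Fgfr1, Slc3a2 and Atp6v1a, each lower in KO. The causes were not tested.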
